A study of Mus musculus with 12 samples.

Results

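The keratin genes of the mouse seminal vesicle were followed across 4 groups of arrays. A gene was counted as a keratin where its probe set carried a single platform symbol made of Krt, a number and at most 1 further letter, which leaves out the keratin-associated proteins. Of 30063 genes with 1 platform symbol, 48 met this rule, each measured by 1 probe set. A gene was tested where it lay above the array's own median on 3 or more of 12 arrays, which 42 of the 48 keratins did, among 20102 genes tested in all. The 6 that did not were Krt1, Krt2, Krt222, Krt26, Krt32 and Krt76.

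The arrays measured RNA from the whole seminal vesicle of male C57BL/6 mice at week 10 of life. Pups had received diethylstilbestrol (DES), a synthetic estrogen, at 2 µg per pup per day, injected under the skin in corn oil on days 1 to 5, or corn oil alone (vehicle, veh). The groups were aERKO-DES, aERKO-veh, WT-DES and WT-veh, with 3 arrays each, where aERKO mice lack estrogen receptor alpha and WT mice are wild type. How the receptor gene was disrupted, and whether replicates are different animals, is not stated in the sources used here, so p-values reflect only how these samples vary, possibly for technical reasons. Replicates are named by their number in the labels. All levels below are log2 expression as normalized by the authors, and all differences are log2 differences with the standard error (SE) of a limma fit to the 12 arrays. A gene was called where its p, adjusted by Benjamini-Hochberg over all genes tested, was below 0.05.

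Keratins are the intermediate filaments of epithelial cells. A filament is built from pairs of an acidic type I and a basic type II keratin, and epithelia differ in the pairs they use. Krt8 and Krt18, with Krt7 and Krt19, are typical of simple, secretory epithelium such as that of the seminal vesicle. Krt5 with Krt14 or Krt15 marks the basal cells of layered epithelia, Krt4 with Krt13 the upper layers of wet squamous epithelia such as the oesophagus, Krt1 with Krt10 the upper layers of skin, and Krt6a, Krt6b, Krt16 and Krt17 keratinocytes activated by injury. Other members serve the hair shaft and the inner root sheath of the hair follicle. Neonatal estrogen exposure of male rodents is known for squamous change in accessory sex glands.

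Arrays of the same group correlated at 0.982 to 0.996 over the genes tested, and pairs of a WT-DES array with an array of another group at 0.867 to 0.919. Esr1, which encodes estrogen receptor alpha, had 6.81, 6.99 and 6.90 in aERKO-DES, 7.01, 7.09 and 6.88 in aERKO-veh, 7.74, 7.68 and 7.55 in WT-DES, and 7.80, 7.66 and 7.80 in WT-veh. It was lower in aERKO than in WT in both treatments, by the limma fit (log2 difference -0.76 ± 0.08 SE and adjusted p = 1.06e-05 with DES, -0.76 ± 0.08 SE and adjusted p = 0.00587 with vehicle), and the part of the transcript that the probe set reads is not given. The background control probe sets of the array averaged 5.279 in aERKO-DES, 5.33 in aERKO-veh, 4.871 in WT-DES and 5.306 in WT-veh. They thus differed by -0.435 between WT-DES and WT-veh, and the hybridization controls, which are added to the labelled sample in fixed amounts, by -0.357. These offsets are of the size of the small keratin differences given below.

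In WT mice, DES exposure went with higher Krt4, Krt13 and basal keratins and with a split within the simple type. Of the 42 keratins tested, 10 were higher in WT-DES than in WT-veh, where 20.7% of all genes tested were called higher, and 8 were lower, where 23.3% of all genes were called lower. A difference of at least 2-fold was called higher for 3 keratins, Krt4, Krt15 and Krt5, against 4.59% of all genes, and lower for 0 keratins, against 0.532% of all genes. The shares of keratins called, 23.8% higher and 19% lower, were thus near those of all genes. The groups did not overlap for 10 keratins higher and 21 lower, against 25.8% and 35.1% of all genes. The median keratin difference was -0.15, beside -0.05 over all genes tested.

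**Figure D1:**
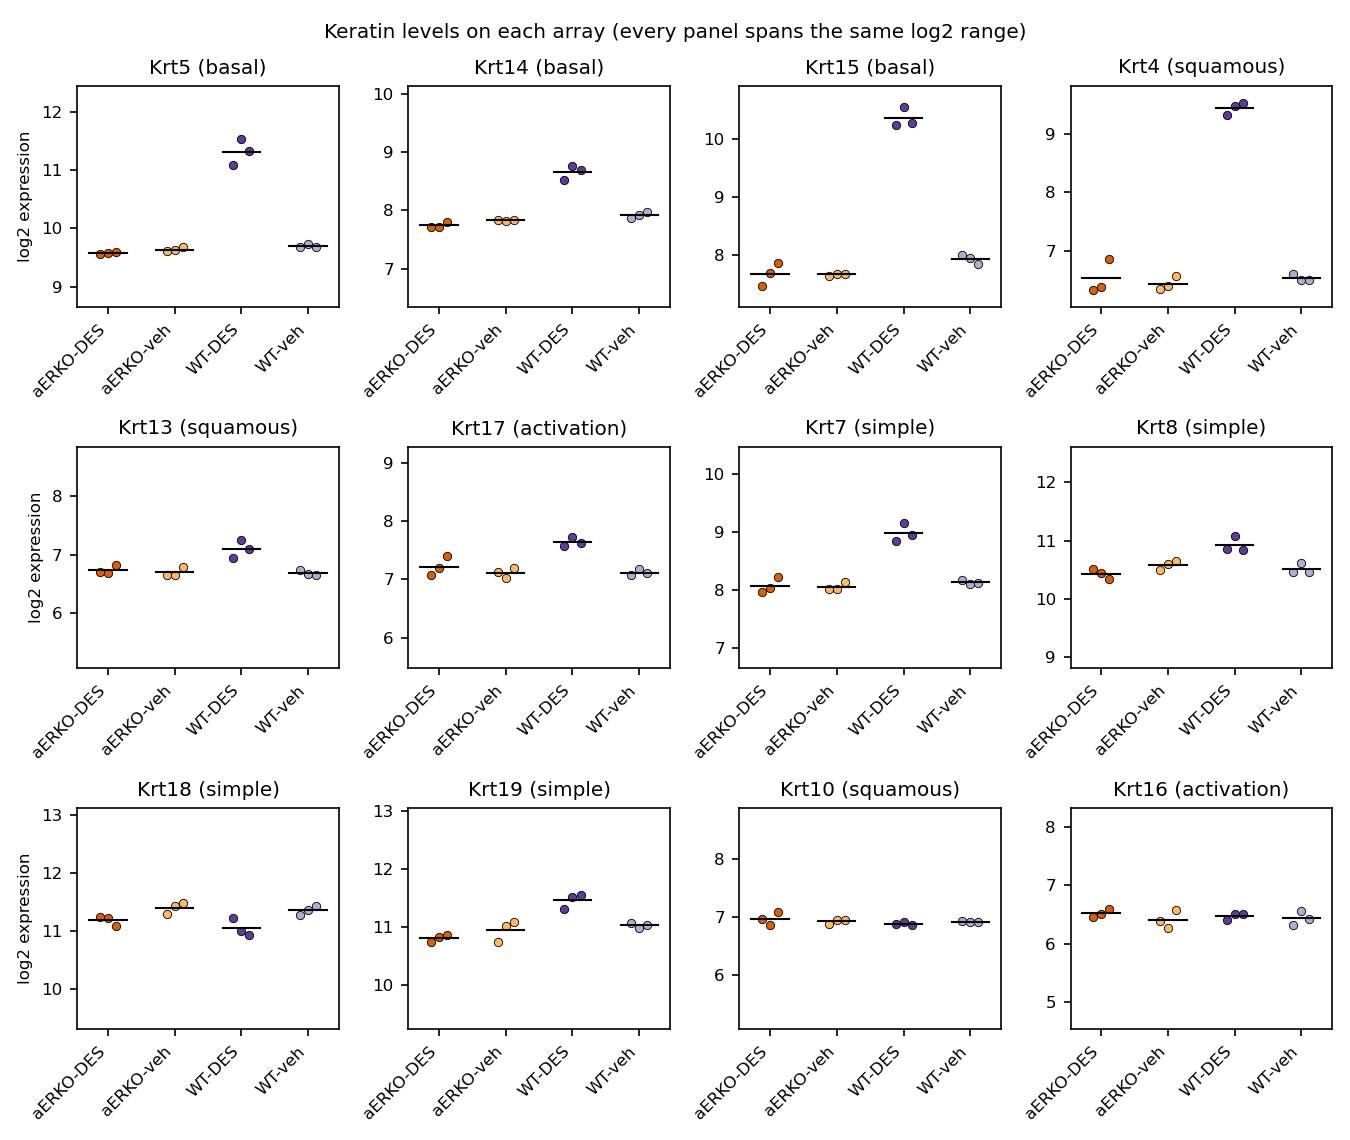
Level of 12 keratins on each of the 12 arrays (log2 expression, 3 points per group, bar at the group mean), with every panel spanning the same log2 range. For Krt4, Krt15, Krt5, Krt14, Krt7, Krt13, Krt17, Krt8 and Krt19 the 3 WT-DES arrays lie above all 9 other arrays. Krt10 and Krt16 had no call in WT.

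All 3 basal keratins rose in WT. Krt15, a type I keratin of resting basal cells, had 10.24, 10.54 and 10.28 in WT-DES against 8.002, 7.950 and 7.841 in WT-veh. Its difference was 2.42 ± 0.10 SE, or 5.35-fold (limma adjusted p = 2.16e-09). Krt5, the type II partner of the basal layer, had 11.10, 11.53 and 11.32 in WT-DES against 9.67, 9.73 and 9.68 in WT-veh. It was 3.08-fold higher (1.62 ± 0.09 SE, limma adjusted p = 2.66e-08). Krt14, the usual type I partner of Krt5, had 8.52, 8.76 and 8.69 in WT-DES against 7.86, 7.92 and 7.96 in WT-veh, a smaller rise of 1.67-fold (0.74 ± 0.07 SE, limma adjusted p = 3.74e-06). None of these 3 genes had overlapping groups in WT.

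In mice without the receptor the same 3 genes had no call. Krt15 had 7.47, 7.70 and 7.86 in aERKO-DES against 7.65, 7.68 and 7.68 in aERKO-veh, with a difference of 0.01 (95% interval -0.21 to 0.23). Krt5 had 9.56, 9.57 and 9.60 in aERKO-DES against 9.60, 9.62 and 9.67 in aERKO-veh, and its interval ran from -0.25 to 0.14. Krt14 had 7.71, 7.72 and 7.80 in aERKO-DES against 7.84, 7.82 and 7.83 in aERKO-veh, and its interval ran from -0.24 to 0.06. The test of the difference between the DES responses, aERKO minus WT, was called for all 3, at -2.41 ± 0.14 SE for Krt15 (limma adjusted p = 1.44e-07), -1.68 ± 0.13 SE for Krt5 (1.19e-06) and -0.83 ± 0.10 SE for Krt14 (6.5e-05).

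Of 10 squamous keratins tested, Krt4, Krt13 and Krt80 rose in WT and 0 fell, beside 20.7% of all genes called higher and 23.3% lower. Krt4, the type II keratin of oesophageal and vaginal upper layers, had 9.33, 9.48 and 9.53 in WT-DES against 6.60, 6.50 and 6.49 in WT-veh. This was the largest keratin difference in WT, 7.55-fold (2.92 ± 0.12 SE, limma adjusted p = 1.95e-09). In the knockouts Krt4 had 6.33, 6.38 and 6.86 in aERKO-DES against 6.34, 6.40 and 6.56 in aERKO-veh, and the DES responses differed by -2.83 ± 0.17 SE (limma adjusted p = 1.68e-07). Krt13, the type I partner of Krt4, had 6.93, 7.25 and 7.10 in WT-DES against 6.74, 6.66 and 6.64 in WT-veh, a rise of 1.34-fold (0.42 ± 0.08 SE, limma adjusted p = 0.00157). It had 6.69, 6.69 and 6.82 in aERKO-DES against 6.65, 6.65 and 6.78 in aERKO-veh, and the responses differed by -0.38 ± 0.12 SE (limma adjusted p = 0.0352), a call that was lost in 13 of 25 other settings. Krt80, a type II keratin found in many epithelia, was 0.21 ± 0.07 SE higher in WT-DES than in WT-veh (limma adjusted p = 0.0363), and lost this call in 9 of 26 other settings.

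Krt10, the type I keratin of the upper skin layers, had 6.97, 6.86 and 7.08 in aERKO-DES, 6.87, 6.95 and 6.94 in aERKO-veh, 6.87, 6.91 and 6.86 in WT-DES, and 6.93, 6.91 and 6.91 in WT-veh. Its difference in WT was -0.04 (95% interval -0.18 to 0.10, limma adjusted p = 0.645). Its type II partner Krt1 exceeded the array median on 0 of 12 arrays. Without the filter Krt1 had 5.66, 5.75 and 5.83 in aERKO-DES, 5.65, 5.67 and 5.71 in aERKO-veh, 5.689, 5.505 and 5.603 in WT-DES, and 5.69, 5.76 and 5.68 in WT-veh, and its difference in WT was -0.11 ± 0.07 SE (limma adjusted p = 0.25 over all 30063 genes). Without the filter, 0 of the 6 untested keratins were called in WT, where 13.7% of all 30063 genes were higher and 17% lower. In aERKO-DES against WT-DES, 4 of the 6 were called higher, Krt26 (0.29), Krt76 (0.25), Krt2 (0.21) and Krt222 (0.21), against 24.6% of genes, and 0 lower, against 16.9%. The background controls differed by 0.409 between the same groups, more than any of these 4 keratins, and Krt26 lay below these controls in every group. These 4 calls were not tested with the arrays shifted to either set of controls. The other 6 squamous keratins tested, Krt9, Krt12, Krt24, Krt77, Krt78 and Krt79, differed by -0.21 to -0.05 in WT with no call.

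Of the keratins of activated keratinocytes, Krt17 rose and Krt16 did not pass the test. Krt17, a type I keratin induced in wounds, had 7.57, 7.72 and 7.63 in WT-DES against 7.07, 7.17 and 7.10 in WT-veh, 1.44-fold higher (0.52 ± 0.09 SE, limma adjusted p = 0.000372). It had 7.07, 7.19 and 7.40 in aERKO-DES against 7.13, 7.03 and 7.19 in aERKO-veh, and the DES responses differed by -0.42 ± 0.12 SE (limma adjusted p = 0.0248), a call lost in 8 of 25 other settings. Krt16 had 6.46, 6.51 and 6.60 in aERKO-DES, 6.39, 6.26 and 6.58 in aERKO-veh, 6.41, 6.50 and 6.52 in WT-DES, and 6.33, 6.57 and 6.42 in WT-veh, with overlapping groups and a WT difference of 0.04 (95% interval -0.15 to 0.23). Krt6a and Krt6b, near-identical type II partners of Krt16 and Krt17, are not among the 48 because they share a probe set, whose values stand in the closing section.

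**Figure D2:**
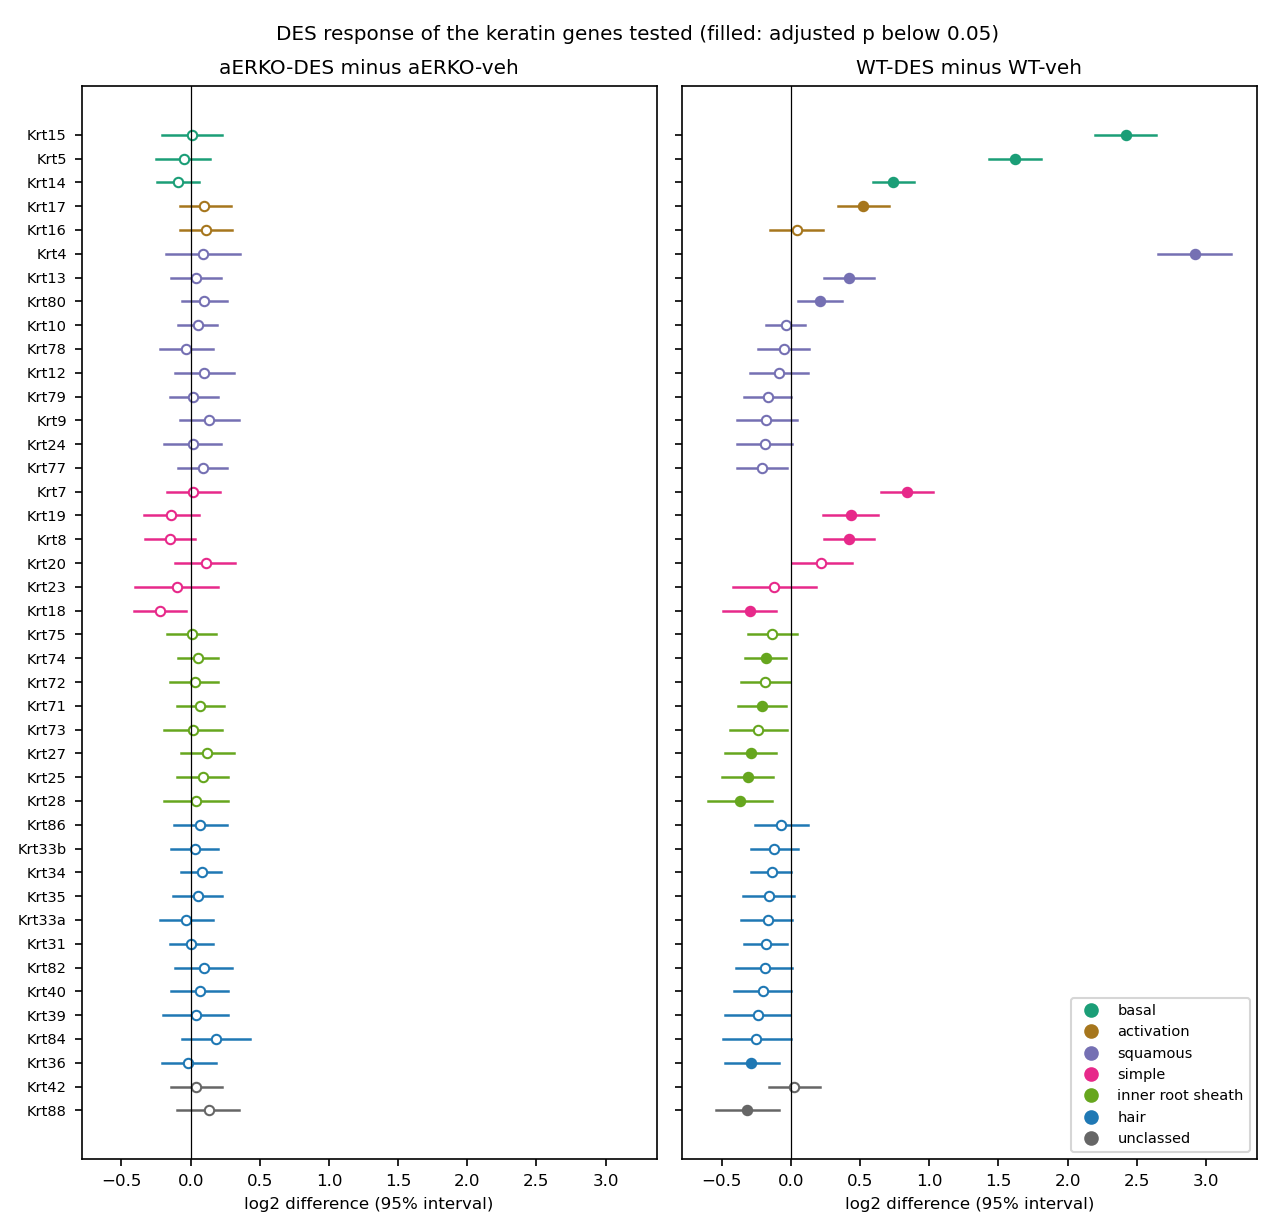
DES response of the 42 keratins tested, by class, in aERKO (left, aERKO-DES minus aERKO-veh) and WT (right, WT-DES minus WT-veh), as log2 differences with 95% intervals and filled points where the adjusted p was below 0.05. In WT, 10 filled points lie to the right of 0 and 8 to the left, and in aERKO no point is filled.

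The 6 keratins of simple epithelium did not move together. Krt7, a type II keratin of ducts and glands, had 8.84, 9.15 and 8.95 in WT-DES against 8.18, 8.11 and 8.13 in WT-veh, 1.79-fold higher (0.84 ± 0.09 SE, limma adjusted p = 1.07e-05). It had 7.97, 8.04 and 8.22 in aERKO-DES against 8.02, 8.02 and 8.14 in aERKO-veh, and the responses differed by -0.82 ± 0.12 SE (limma adjusted p = 0.00048). Krt19, a type I keratin that needs no fixed partner to be expressed, had 11.32, 11.52 and 11.55 in WT-DES against 11.07, 10.98 and 11.04 in WT-veh, 1.35-fold higher (0.43 ± 0.09 SE, limma adjusted p = 0.00262). It had 10.74, 10.83 and 10.86 in aERKO-DES against 10.74, 11.02 and 11.09 in aERKO-veh, and the responses differed by -0.57 ± 0.13 SE (limma adjusted p = 0.00815).

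Krt8 and Krt18, the obligate pair of simple epithelium, went opposite ways in WT on the deposited scale. Krt8 had 10.86, 11.08 and 10.84 in WT-DES against 10.45, 10.62 and 10.46 in WT-veh, 1.34-fold higher (0.42 ± 0.08 SE, limma adjusted p = 0.00159). Krt18 had 11.23, 11.01 and 10.94 in WT-DES against 11.28, 11.37 and 11.44 in WT-veh, 1.23-fold lower (-0.30 ± 0.09 SE, limma adjusted p = 0.0151). The fall of Krt18 depends on the scaling, since with the arrays shifted to the hybridization or the background controls its difference was 0.06 or 0.13, with no call. In aERKO, Krt8 had 10.51, 10.45 and 10.34 in aERKO-DES against 10.50, 10.60 and 10.64 in aERKO-veh, a difference of -0.15 ± 0.08 SE. Krt18 had 11.23, 11.22 and 11.09 in aERKO-DES against 11.28, 11.43 and 11.49 in aERKO-veh, a difference of -0.22 ± 0.09 SE. The DES responses of aERKO and WT differed for Krt8, by -0.57 ± 0.12 SE (limma adjusted p = 0.00448), and the difference for Krt18, 0.08 ± 0.12 SE, did not pass (limma adjusted p = 0.64).

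Krt20 and Krt23, type I keratins of gut and other glands, did not pass the test in WT. Krt20 had 6.06, 6.42 and 6.20 in WT-DES against 6.08, 5.88 and 6.05 in WT-veh (0.22 ± 0.10 SE, limma adjusted p = 0.0875). Krt23 had 7.005, 7.402 and 7.017 in WT-DES against 7.37, 7.08 and 7.35 in WT-veh (-0.12 ± 0.14 SE, limma adjusted p = 0.475). In the knockouts Krt23 had 6.45, 6.93 and 6.63 in aERKO-DES and 6.77, 6.89 and 6.65 in aERKO-veh, below the WT-veh arrays in every case.

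Because a shift of a whole array cancels between 2 genes on that array, the change of a within-array difference does not depend on such a shift. The level of 1 probe set against another carries no meaning, and only its change between groups can be read. Such a change can still depend on how strongly each probe set responds, which was not tested. In WT-veh, Krt4 and Krt13 lay 1.224 and 1.373 above the background controls, and Krt5 4.392. Krt8 minus Krt18 was -0.37, 0.07 and -0.09 in WT-DES against -0.82, -0.75 and -0.98 in WT-veh, a change of 0.72. The same quantity changed by 0.07 between aERKO-DES and aERKO-veh. The change in WT was 0.88 for Krt5 minus Krt14, 1.68 for Krt15 minus Krt14 and 2.50 for Krt4 minus Krt13. In aERKO these changes were 0.03, 0.09 and 0.05. For these 4 pairs, of which Krt15 with Krt14 joins 2 type I keratins, the WT-DES arrays lay apart from the other 9. Among pairs of simple keratins the change in WT was 0.41 for Krt7 minus Krt19 and -0.02 for Krt8 minus Krt19, so that Krt8 and Krt19 changed by about the same amount. These changes were not tested.

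**Figure D3:**
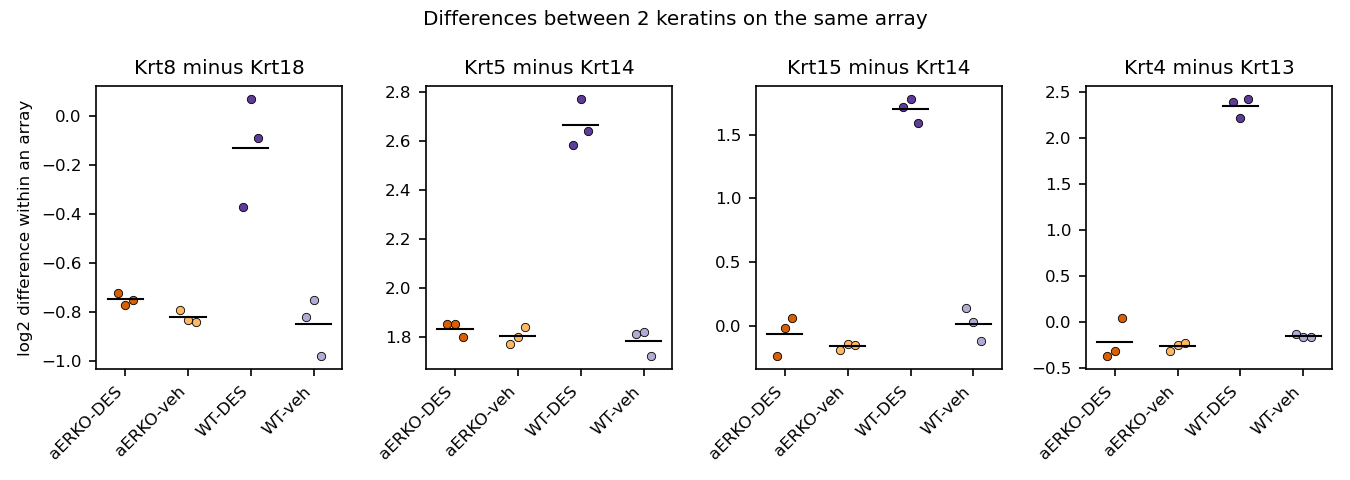
Within-array log2 difference between 2 keratins, 3 points per group with a bar at the group mean. The 3 WT-DES arrays lie above the other 9 in each panel, and only the change between groups, not the level, can be read.

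The hair keratins tested differed by -0.29 to -0.07 in WT on the deposited scale (median -0.18). The inner root sheath keratins tested differed by -0.37 to -0.14 (median -0.22). The 2 classes were not tested against each other, and their calls are as follows. Of 8 inner root sheath keratins tested 0 rose and 5 fell, Krt28, Krt25, Krt27, Krt71 and Krt74, by -0.37 to -0.18, and of 11 hair keratins tested 0 rose and 1 fell, Krt36 (-0.29 ± 0.09 SE, limma adjusted p = 0.0211), beside 23.3% of all genes called lower. Krt88, a type II keratin of no assigned class, also fell (-0.32 ± 0.10 SE, limma adjusted p = 0.0272), and Krt42 did not pass. The background controls, which match no mouse transcript, differed by -0.435 on the same arrays, and their part in these declines was not tested. With the arrays shifted to the hybridization controls 0 keratins were lower in WT-DES, and with the arrays shifted to the background controls 0 were lower and 29 higher. Without WT-DES array 2 the count of keratins called lower was 1.

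In aERKO, DES exposure left no keratin called in either direction, and 0 of all 20102 genes tested were called (percent called 0). At an unadjusted limma p below the threshold of 0.05 there were 264 genes, 1 of them a keratin, Krt18. The groups did not overlap for 3 keratins, Krt5, Krt14 and Krt18, all lower in aERKO-DES, against 4.56% of all genes lower, and for 0 keratins higher, against 1.56%. The 42 differences ran from -0.22 to 0.18, with a median of 0.04. The test of the difference between the DES responses called 12 keratins. It was negative, with the response lower in aERKO, for 9, against 14.1% of all genes, namely the 9 described above with an interaction called, and positive for 3, against 9.16% of all genes, namely Krt25, Krt27 and Krt88 (0.40 to 0.45). With either set of controls as the scale, 0 of the positive calls remained.

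Between the genotypes given vehicle, 0 keratins were called, against 0.00995% of all genes higher and 0.0149% lower in aERKO-veh. At an unadjusted p below 0.05 there were 2 keratins, both lower in aERKO-veh than in WT-veh. Krt23 differed by -0.49 ± 0.14 SE (limma adjusted p = 0.71). Krt15 differed by -0.26 ± 0.10 SE, with 7.65, 7.68 and 7.68 in aERKO-veh against 8.002, 7.950 and 7.841 in WT-veh (limma adjusted p = 1). The groups did not overlap for 7 keratins, all lower in aERKO-veh, against 5.74% of all genes lower, and for 0 higher, against 6.42%.

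Between the genotypes given DES, 12 keratins were lower in aERKO-DES than in WT-DES, against 24.6% of all genes, and 20 were higher, against 27.5% of all genes. The lower ones were the 9 with a called interaction of negative sign together with Krt80, Krt20 and Krt23. Their differences ran from -2.92 for Krt4 and -2.67 for Krt15 to -0.21 for Krt80. Krt23 differed by -0.47 ± 0.14 SE (limma adjusted p = 0.0139), close to its difference of -0.49 under vehicle. The 20 higher ones differed by 0.20 to 0.43 and comprised 9 hair, 6 inner root sheath and 4 squamous keratins and Krt88. None of these 20 kept its call when the arrays were shifted to either set of controls. This comparison shares its WT-DES arrays with that of WT-DES and WT-veh.

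Keratin genes lie in 2 clusters, type I on chromosome 11 and type II on chromosome 15, with the type I gene Krt18 at the edge of the type II cluster beside Krt8. On chromosome 11, in gene order, Krt13, Krt15 and Krt19 stood next to each other and all rose, Krt9 followed with no call, then Krt14 rose, Krt16 did not pass and Krt17 rose. On chromosome 15, Krt5 had Krt71, which fell, on one side and Krt6a and Krt6b on the other, whose shared probe set was 1.33 ± 0.14 SE higher in WT-DES than in WT-veh (limma adjusted p = 4.09e-05 over all probe sets). Krt4 lay between Krt76, which was not tested, and Krt79, which had no call. Of 25 type I keratins tested 5 rose and 5 fell, and of 17 type II keratins 5 rose and 3 fell, beside 20.7% of all genes called higher and 23.3% called lower.

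**Figure D4:**
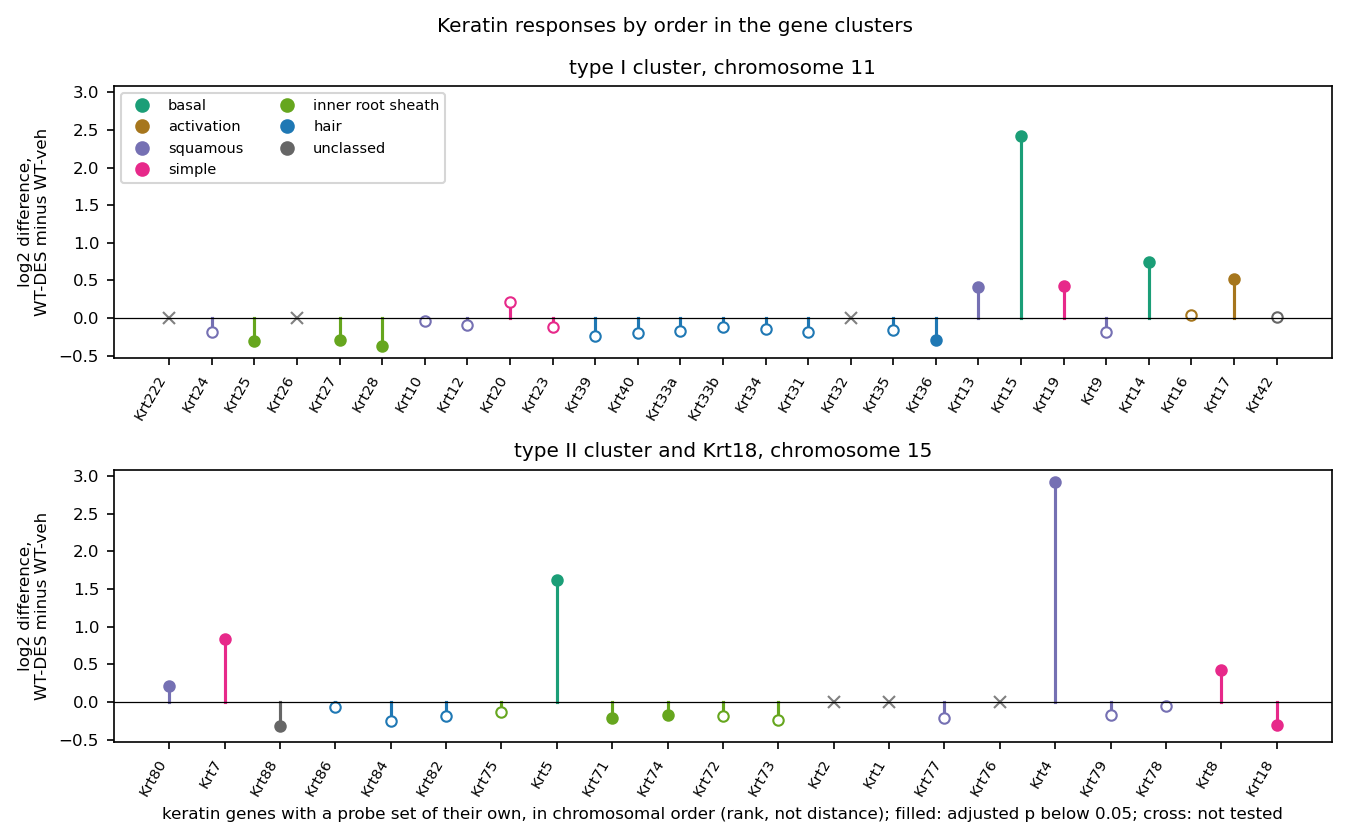
Log2 difference, WT-DES minus WT-veh, of each keratin with a probe set of its own, in chromosomal order (rank, not distance, with genes that share a probe set left out), for the clusters on chromosomes 11 and 15, with filled points where the adjusted p was below 0.05 and crosses for keratins not tested. Krt4 (2.92), Krt15 (2.42) and Krt5 (1.62) stand above the rest.

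The promoters of Krt5, Krt7, Krt8 and Krt18 are shown because these 4 genes of chromosome 15 changed by different amounts or in different directions. Each is the 250 bases before the gene's start from RefSeq, build GRCm38.p6, read 5′ to 3′ on the gene's strand. They lie at chr15:101712906-101713155 (minus strand), chr15:101412153-101412402 (plus), chr15:102004343-102004592 (minus) and chr15:102027966-102028215 (plus), in the order Krt5, Krt7, Krt8, Krt18. Capitals mark matches to an AP-2 motif (GCCNNNGGC) or a GC box (CCGCCC), on either strand.
Krt5: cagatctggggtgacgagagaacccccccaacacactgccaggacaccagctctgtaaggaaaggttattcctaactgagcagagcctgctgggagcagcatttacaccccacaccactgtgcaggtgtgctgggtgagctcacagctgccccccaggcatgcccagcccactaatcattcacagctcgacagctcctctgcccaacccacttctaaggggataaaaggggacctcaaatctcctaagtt
Krt7: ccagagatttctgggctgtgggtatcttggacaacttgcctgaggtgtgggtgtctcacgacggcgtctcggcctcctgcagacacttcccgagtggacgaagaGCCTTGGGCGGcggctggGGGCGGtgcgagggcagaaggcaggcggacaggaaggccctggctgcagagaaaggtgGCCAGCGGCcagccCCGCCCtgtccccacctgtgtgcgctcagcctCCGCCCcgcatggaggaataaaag
Krt8: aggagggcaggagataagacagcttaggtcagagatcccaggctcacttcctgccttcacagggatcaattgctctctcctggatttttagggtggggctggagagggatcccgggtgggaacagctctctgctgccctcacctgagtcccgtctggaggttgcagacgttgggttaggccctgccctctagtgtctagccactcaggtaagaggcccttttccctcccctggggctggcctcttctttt
Krt18: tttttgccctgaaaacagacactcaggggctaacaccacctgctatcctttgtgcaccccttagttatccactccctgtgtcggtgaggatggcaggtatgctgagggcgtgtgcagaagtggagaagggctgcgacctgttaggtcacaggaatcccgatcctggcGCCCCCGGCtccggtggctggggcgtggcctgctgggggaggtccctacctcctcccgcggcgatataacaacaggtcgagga
Of the 48 keratins, 35 had an entry in the promoter table. The AP-2 motif stood in 4 of them, Krt7, Krt9, Krt18 and Krt42, and in 13.7% of all 32851 promoters of this length. GC boxes stood in 2, Krt7 and Krt75, and in 32.7% of all promoters. An AP-1 motif (TGANTCA) was found in Krt13 alone among the 35, and in 6.75% of all. A palindromic estrogen response element (GGTCA and TGACC, 3 bases apart) was found in 0 of 35 and in 0.0639% of all promoters. A TATA box (TATAAA) stood in 17 of 35 genes, against 12.4% of all promoters. The 17 included Krt25, Krt27, Krt28 and Krt71, which fell in WT on the deposited scale, calls lost with either set of controls. Most of the 17 had no call in WT, among them Krt10, Krt12, Krt20, Krt31 and Krt34, or were not tested. Krt18, which fell, and Krt5, Krt7, Krt8 and Krt13, which rose, were not among the 17. In Krt7, a GC box overlapped an AP-2 match. These matches describe the letters of these windows only.

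Genes that anchor keratin filaments or act in the same layers were counted from lists, to be read beside the 20.7% of all genes called higher and 23.3% called lower in WT. Of 8 hemidesmosome genes tested, which fix basal cells to the basement membrane, 7 rose in WT-DES against WT-veh and 0 fell, with a median difference of 0.40 beside -0.05 over all genes. They included Col17a1 (0.57 ± 0.08 SE, limma adjusted p = 0.000108), Itgb4, the integrin that binds the filament linkers (0.51 ± 0.06 SE, 4.36e-05), Dst (0.49 ± 0.10 SE, 0.00224) and Lama3 (0.43 ± 0.07 SE, 0.000334). Of 14 desmosome genes tested, which join keratin filaments of neighbouring cells, 4 rose and 3 fell (median -0.03), near the shares of all genes. Those that rose included Dsc3 and Dsg3, cadherins of basal layers, at 1.85 ± 0.12 SE and 0.84 ± 0.10 SE (limma adjusted p = 1.78e-07 and 2.11e-05), and Pkp1 at 0.58 ± 0.08 SE, while Pkp2, a plakophilin of simple epithelium, fell (-0.56 ± 0.13 SE, limma adjusted p = 0.00365). Dsc3 averaged below the background controls in WT-veh, and 14 of the 18 desmosome genes on the arrays passed the filter. Dsc3 could pass it through its WT-DES arrays alone, so the count of desmosome genes that rose depends in part on the filter.

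Of 29 cornified envelope genes on the arrays, 17 passed the filter, and of these 8 rose and 2 fell in WT (median 0.19). The small proline-rich proteins, which are cross-linked into the envelope, led them, with Sprr2f at 4.51 ± 0.26 SE, Sprr2b at 2.67 ± 0.18 SE, Sprr2d at 2.45 ± 0.25 SE and Sprr1a at 1.80 ± 0.35 SE (limma adjusted p from 4.51e-08 to 0.00141). Sprr2f averaged 4.89 in aERKO-DES, 4.87 in aERKO-veh, 9.47 in WT-DES and 4.97 in WT-veh, the last below the background controls. A gene this low in the other groups could pass the filter through its WT-DES arrays alone. The counts and the median of this list therefore depend in part on the filter. Sprr2 genes are near-identical copies, so their probe sets may share signal. Of 21 regulators of epithelial fate 9 rose and 6 fell (median 0.13). Differences in this list ran from -0.47 to 1.45, and the 4 largest were those of Klf5, a factor of basal cells, at 1.45 ± 0.09 SE (limma adjusted p = 1.2e-07), the Notch ligand Jag1 at 0.87 ± 0.09 SE, and Grhl3 and Zfp750, factors of epidermal differentiation, at 0.59 ± 0.12 SE and 0.56 ± 0.10 SE. Trp63, the p63 gene that drives the basal programme, was 0.45 ± 0.07 SE higher (limma adjusted p = 0.000177), and was chosen for naming after its values were seen. Of 17 other intermediate filament genes 2 rose, Vim at 1.55 ± 0.11 SE and Lmnb1 at 0.82 ± 0.07 SE, and 3 fell, including Synm (-0.61 ± 0.11 SE). In aERKO none of the members of these 5 lists was called.

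**Figure D5:**
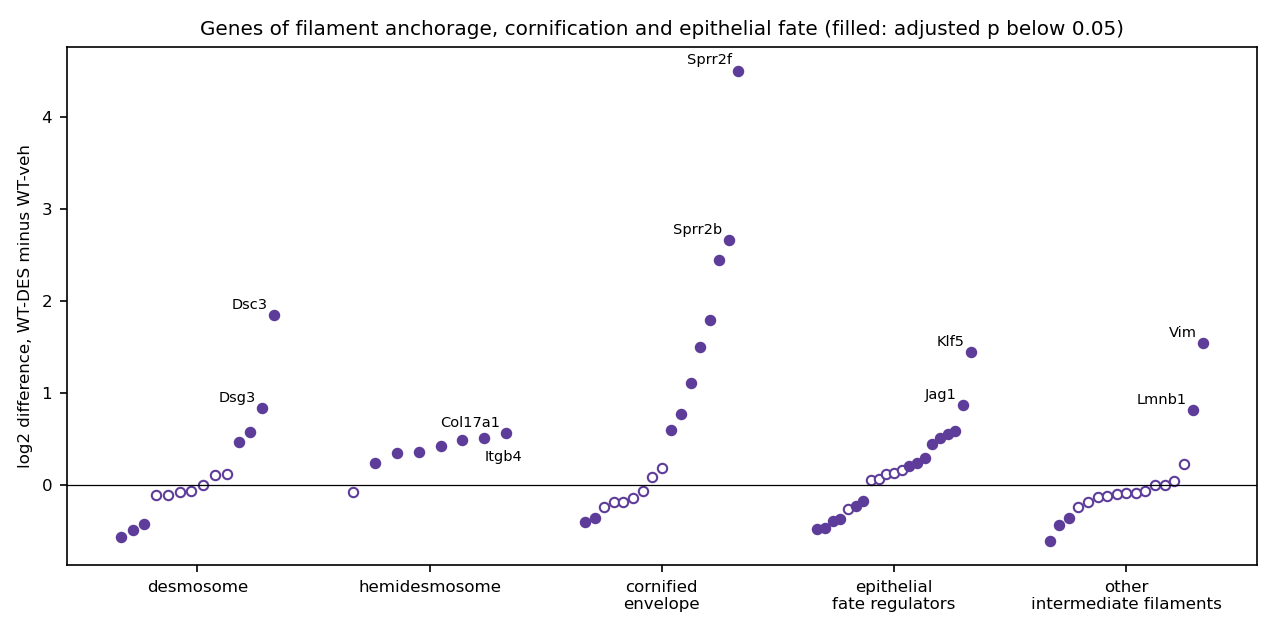
Log2 difference, WT-DES minus WT-veh, of each gene tested in 5 lists of filament anchorage, cornification, epithelial fate and other filaments, ordered by size within a list, filled where the adjusted p was below 0.05, with the 2 highest labelled. The hemidesmosome genes sit between -0.07 and 0.57, and the cornified envelope list reaches 4.51.

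Markers of other cell types were counted in the same comparison of WT-DES with WT-veh, where 20.7% of all genes were called higher and 23.3% lower. In bulk tissue, a smaller number of cells of a type and less RNA per cell cannot be told apart. Of 9 neutrophil markers 8 rose, of 8 macrophage markers 8, and of 6 fibroblast markers 6, and the mean log2 level of the neutrophil list ranged from 5.57 to 5.82 in aERKO-DES, 5.54 to 5.78 in aERKO-veh, 8.37 to 9.04 in WT-DES and 5.66 to 5.69 in WT-veh. In WT-veh 4 neutrophil markers, S100a8, Retnlg, Ngp and Mmp8, averaged below the background controls. Markers this low in the other groups could pass the filter through their WT-DES arrays alone. The count of neutrophil markers that rose therefore depends in part on the filter. The macrophage list ranged from 9.69 to 10.16 in WT-DES and from 7.32 to 7.6 in WT-veh. Of 9 epithelial markers 3 rose and 4 fell, and their mean level ran from 9.46 to 9.48 in WT-DES and from 9.52 to 9.56 in WT-veh. Of 9 seminal vesicle markers 0 rose and 5 fell, of 5 urothelial markers 0 rose and 2 fell, and of 7 smooth muscle markers 0 rose and 6 fell. Of 4 prostate markers tested 0 rose and 3 fell, and of 4 mesothelial markers 1 rose, Krt19 itself, and 0 fell. The part of a changed mix of cells in the keratin results was not tested.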

How the data were processed

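Levels are log2 expression values, which the authors computed by RMA (Affymetrix Expression Console, as the submitters' processing notes say); neither versions nor a genome build are named there. Amplification started from 300 ng of RNA, per the labels' protocols. RMA includes a step that equalizes the distribution of values between arrays. The medians of the deposited values still ran from 5.95 in WT-DES 2 to 6.141 in aERKO-DES 3. The part of this step in the small declines was not tested. The deposited table held 72688 probe sets, 186 of them controls, 30604 with 1 gene symbol. Symbols were updated through the mouse table of GRCm38.p6 (1135 changed). A gene was represented by its probe set with the highest mean. The limma 3.58.1 fit (R 4.3.3, lmFit and eBayes, two-sided) had 4 group means, 8 residual and 4.33 prior degrees of freedom, and was tested on simulated data. There were 5 comparisons. The number of arrays limits the precision. Figures used matplotlib 3.10.9.

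The members, gene classes and lists were chosen with earlier results of these data known. Values per array are given for keratins called with a difference of at least 0.5 in any comparison and for classic pair members, and up to 4 genes are named per other list. Alternatives covered filters, probe sets, moderation, groups in the fit, array weights, normalization and scaling, the replicate number as a block, and arrays left out. The shift to the background controls was chosen after the data were seen. Array weights were fitted gene by gene, also chosen after the data were seen, because the default method did not converge.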

Additional observations from a re-analysis of the deposited data

Results flagged for a closer look

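The DES responses of aERKO and WT differed by the limma test of the difference itself for 12 keratins, as aERKO minus WT on the log2 scale. Lower responses in aERKO were found for Krt4 (-2.83), Krt15 (-2.41), Krt5 (-1.68), Krt14 (-0.83), Krt7 (-0.82), Krt19 (-0.57), Krt8 (-0.57), Krt17 (-0.42) and Krt13 (-0.38). Higher responses were found for Krt25 (0.40), Krt27 (0.41) and Krt88 (0.45), and these 3 were not called with either set of array controls as the scale.

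The probe set that Krt6a and Krt6b share lies outside the 48 keratins. It had 7.32, 7.32 and 7.54 in aERKO-DES, 7.35, 7.24 and 7.45 in aERKO-veh, 8.31, 9.02 and 8.64 in WT-DES, and 7.33, 7.36 and 7.29 in WT-veh. Tested among all probe sets, it was 1.33 ± 0.14 SE higher in WT-DES than in WT-veh (limma adjusted p = 4.09e-05), and the DES responses differed by -1.28 ± 0.20 SE (limma adjusted p = 0.00154). Which of the 2 genes gave the signal cannot be told apart.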

How the results depend on the processing

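In 26 other settings, the rises of Krt4, Krt15, Krt5, Krt14, Krt7, Krt17, Krt13 and Krt8 in WT kept their direction and call, Krt19 lost its call with quantile normalization (0.21) and Krt80 in 9. The counts in aERKO-DES against aERKO-veh and in aERKO-veh against WT-veh stayed at 0. The count of keratins lower in WT-DES (8) became 20 with array weights, 18 with quantile normalization, 22 with a shift to the same median, 20 without both DES arrays numbered 3, and 0 with either set of controls. The count higher in WT-DES (10) became 29 with the background controls. Positive interactions (3) became 0 with every probe set tested or either set of controls, 5 with array weights or the same 75th percentile, 7 with quantile normalization, 9 with the same median and 6 with the replicate block. Keratins higher in aERKO-DES than in WT-DES (20) became 13 with every probe set tested, 9 with only the groups compared and 0 with either set of controls, and those lower (12) became 19 with the background controls.

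Shifted to the hybridization controls, 28 of the 42 differences in WT changed sign. Among them, of those called or given with values above, were Krt18 (0.06), Krt23 (0.23), Krt25 (0.04), Krt27 (0.06), Krt36 (0.07), Krt71 (0.15), Krt74 (0.17), Krt88 (0.04) and Krt10 (0.32). In aERKO-DES against WT-DES 8 changed sign, among them Krt33b (-0.02), while Krt79 came to 0. Shifted to the background controls, a setting chosen after the data were seen, 29 changed sign in WT. Among them were Krt18 (0.13), Krt23 (0.31), Krt25 (0.12), Krt27 (0.14), Krt28 (0.06), Krt36 (0.15), Krt71 (0.22), Krt74 (0.25), Krt88 (0.12) and Krt10 (0.40). In aERKO-DES against WT-DES 27 did so, among them Krt24 (-0.16), Krt31 (-0.18), Krt33a (-0.17), Krt33b (-0.21), Krt34 (-0.18), Krt35 (-0.09), Krt36 (-0.09), Krt40 (-0.15), Krt71 (-0.09), Krt72 (-0.18), Krt74 (-0.19), Krt77 (-0.16), Krt79 (-0.19), Krt82 (-0.10), Krt84 (-0.03), Krt88 (-0.13) and Krt9 (-0.11). Krt16 in WT, never called on the deposited scale, was -0.03 with the same median, -0.05 with the same 75th percentile and -0.02 to 0.10 with 1 array left out, negative without WT-veh replicate 1. With the background controls as the scale, Krt16 (0.47) and Krt10 (0.40) were called higher in WT (limma adjusted p = 0.00125 and 0.005). The cause of these changes was not tested.

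With 1 array left out, the counts ranged from 9 to 10 (higher) and 1 to 13 (lower) in WT, 0 to 7 (positive) and 7 to 9 (negative) for the interaction, and 5 to 23 (higher) and 9 to 12 (lower) in aERKO-DES against WT-DES. The count lower in WT was 1 without WT-DES replicate 2, 5 without WT-DES replicate 1, 4, 3 and 3 without WT-veh replicates 1, 2 and 3, and 13 without aERKO-DES replicate 3. The count higher in aERKO-DES than in WT-DES was 5 without WT-DES replicate 2, 12 without WT-DES replicate 1 and 8 without aERKO-DES replicate 3. Same-numbered arrays correlated at -0.355 to 0.52 in their deviations from the group means. The highest values were between arrays numbered 3. They were 0.52 for aERKO-veh with aERKO-DES, 0.456 for WT-DES with aERKO-DES and 0.371 for WT-DES with aERKO-veh. WT-veh array 3 correlated with these arrays at -0.00357 to 0.075. The main fit did not take the numbers as pairs, and the cause of these correlations was not tested. With the replicate block the counts were 10 and 11 in WT, 6 and 9 for the interaction and 23 and 12 in aERKO-DES against WT-DES, in the order higher, lower.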

Other observations

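The probe set shared by 5430421N21Rik, Krt81 and Krt83 differed by -0.12 ± 0.11 SE between WT-DES and WT-veh, with no call (limma adjusted p = 0.386).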
